A study of Rattus norvegicus with 10 samples.

Results

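The tissue was read for 9 genes of blood vessels: the signals that make vessels grow (Vegfa and Fgf2), receptors on the vessel wall (Kdr, Flt1 and Tek), and markers of the endothelial cells that line it (Cdh5, Pecam1, Thbd and Vwf). They were chosen by gene symbol from a table of 17221 transcripts, with earlier results of these data known. Of the 9 symbols, 7 had a row, with 11 transcripts in all. Kdr and Vwf were not analysed here. Vegfa had 5 transcripts, and the other 6 genes 1 transcript each.

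The tissue came from female Wistar rats with collagen-induced arthritis, an inflammatory joint disease raised by immunising the animals with bovine type II collagen in adjuvant, with a booster. All 5 groups carried the disease, so none is a healthy control. The group taken before any therapy is RA_0. Acupuncture gave AP_1h, taken after 1 h, and AP_34d, taken after 34 days, from animals in which a thin steel needle was inserted and twirled at points of the lower back and the leg. The matching placebo groups are PLA_1h and PLA_34d, whose animals had sterile saline injected into the peritoneum. Over the therapy needling was given every other day and saline weekly, schedules that animals taken at 1 h cannot have run through. The tissue was taken from around the needled points. Placebo thus differs from acupuncture in the place of the puncture, which in acupuncture was the sampled tissue itself. It also differs in the injected fluid and the twirling, and at 34 days in the schedule. Each group held 2 libraries, 10 in all, from muscle under the skin, which mixes muscle fibres with the other cell types of that layer. The animals' ages are not given in the sources used here. The labels call the libraries of a group replicates, and p-values measure only the spread between these samples. The values are CPM, counts per 1e+06 reads after TMM scaling, and the libraries held 5371687 to 8899521 counted reads.

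Vessel growth is governed mainly by the VEGF family. VEGF-A acts through VEGFR2, the product of Kdr, while VEGFR1, the product of Flt1, binds VEGF-A tightly but signals weakly and also exists as a secreted form that traps the ligand. FGF2 is another growth signal for endothelium, and Tie2, the product of Tek, receives the angiopoietins that keep vessels quiescent or let them sprout. In muscle, capillaries run along every fibre and their density follows the oxidative work that the fibre does.

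Promoter sequence was lacking for Cdh5, Thbd, Tek and Pecam1. Upstream sequence is shown for a receptor and a ligand, Flt1 and Fgf2. It is RefSeq sequence of build GRCr8, the 250 bases before the start of the gene, read 5′ to 3′, and 4 of the 9 genes were in that promoter table. Capitals mark any match, on either strand, to the cyclic AMP response element TGACGTCA, the ETS core GGAA, the hypoxia response core ACGTG or the TATA box TATAAA. ETS factors are the family best known for switching on endothelial genes.
Flt1 (chr12:12333180-12333429, plus strand): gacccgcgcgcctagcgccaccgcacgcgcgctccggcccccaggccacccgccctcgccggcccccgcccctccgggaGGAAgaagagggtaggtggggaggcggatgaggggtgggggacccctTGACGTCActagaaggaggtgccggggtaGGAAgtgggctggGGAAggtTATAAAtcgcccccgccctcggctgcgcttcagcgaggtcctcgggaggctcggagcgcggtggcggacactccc
Fgf2 (chr2:122164204-122164453, plus strand): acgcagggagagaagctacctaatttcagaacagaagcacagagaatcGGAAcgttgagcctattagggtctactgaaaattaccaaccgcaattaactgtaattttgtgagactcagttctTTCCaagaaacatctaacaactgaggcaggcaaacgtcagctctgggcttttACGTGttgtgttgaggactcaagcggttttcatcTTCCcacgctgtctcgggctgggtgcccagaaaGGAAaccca
The Flt1 window held 1 TGACGTCA, which stood in 1.59% of the 33469 windows of the same length, and 1 TATAAA, which stood in 12.9%. It also held 3 GGAA, a core present in 93.2% of windows with a median of 3 matches. The Fgf2 window held 4 GGAA on the 2 strands and 1 ACGTG, which stood in 16.6% of windows. Neither ACGTG in the Flt1 window nor TGACGTCA or TATAAA in the Fgf2 window was found. None of these motifs overlapped another. The Flt1 window was 73.2% G or C and the Fgf2 window 46.8%, against a median of 51.2%. The matches describe the letters only, and no binding was measured.

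No gene of the 6 with reads passed the adjusted threshold in any of the 6 comparisons (limma, Benjamini-Hochberg over 10259 transcripts). The smallest adjusted p was 0.424, for Cdh5 in AP_1h against RA_0. In that comparison limma called 0.0292% of all transcripts, and in each of the other 5 comparisons 0.0%. Because the genes were chosen with earlier results of these data known, the shares of all transcripts given below describe and do not test them. At an unadjusted p under 0.05, 3 of the 6 genes differed between AP_1h and RA_0. Of them 1 was higher, where 3.62% of all transcripts were, and 2 were lower, where 5.27% were. Between AP_1h and PLA_1h there were 2 higher and 1 lower, beside 1.3% and 2.74% of all transcripts. Between PLA_34d and RA_0 there was 1 higher, beside 2.38%, and none lower, beside 0.819%. AP_34d against RA_0 (4.77% of all transcripts), PLA_1h against RA_0 (2.59%) and AP_34d against PLA_34d (5.47%) had 0 of 6 at that level. Libraries that did not overlap between the groups were counted too. In AP_1h against RA_0 these were 2 genes on the higher side (Thbd and Tek, beside 20.6% of all transcripts) and 2 on the lower (Cdh5 and Flt1, beside 21.0%). In AP_34d against RA_0 there was 1 higher (Flt1, 16.4%) and none lower (15.9%). In PLA_1h against RA_0 there were 2 higher (Flt1 and Tek, 15.8%) and 1 lower (Fgf2, 13.6%), and in PLA_34d against RA_0 the same 2 higher (16.8%) and the same 1 lower (14.2%), the RA_0 libraries being shared. In AP_1h against PLA_1h there was 1 higher (Fgf2, 13.9%) and 1 lower (Flt1, 16.7%), and in AP_34d against PLA_34d there were 2 higher (Thbd and Fgf2, 16%) and 1 lower (Flt1, 15%). For Flt1 both acupuncture libraries lay below both placebo libraries at each time, and limma called neither difference. limma-voom and edgeR also called 0 of the 6 genes in the comparisons of 2 groups, and 0 transcripts in all. DESeq2 called 0 of the 6 genes too, beside 1.69% of all transcripts in AP_1h, 0.322% in AP_34d, 0.107% in PLA_1h and 0.37% in PLA_34d against RA_0, and 0.409% at 1 h and 0.877% at 34 days between acupuncture and placebo. The values that follow are therefore differences between pairs of libraries that did not pass correction, described one gene at a time.

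**Figure D1:**
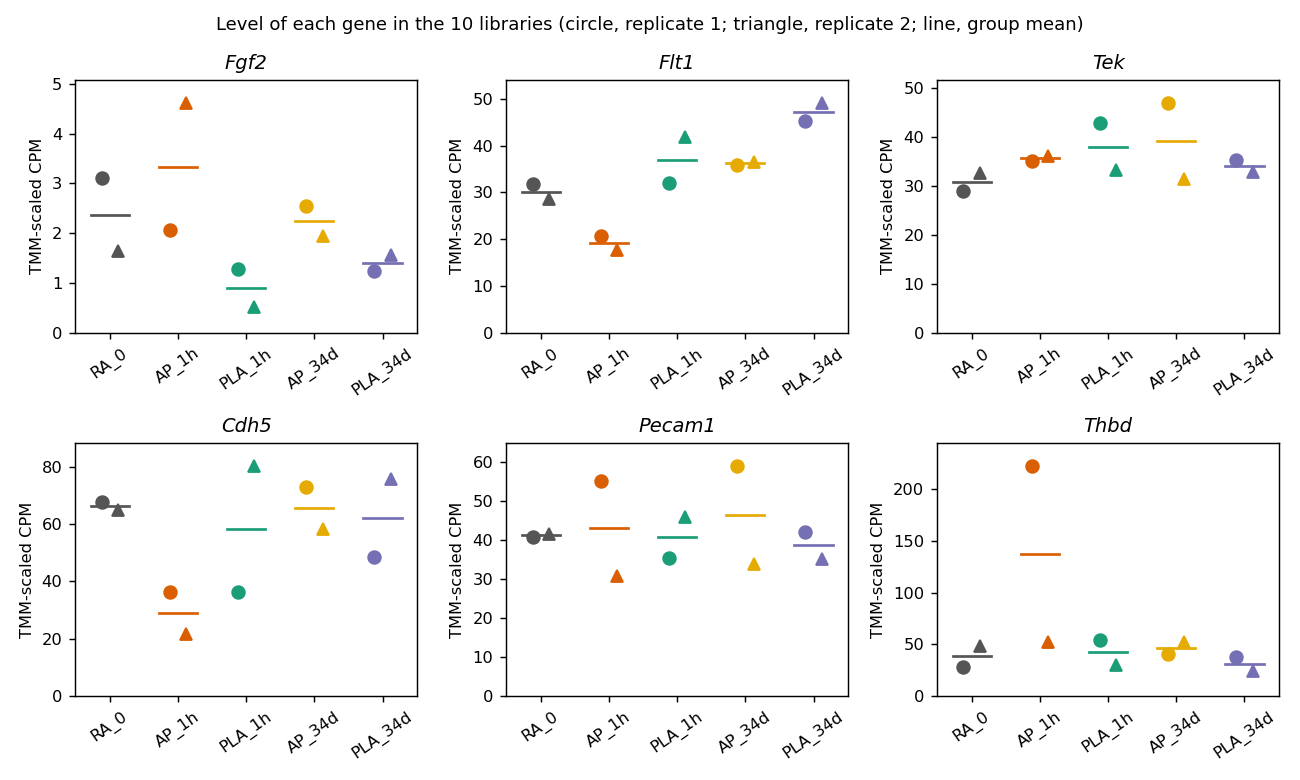
TMM-scaled CPM (vertical axis, from 0) of 6 genes in the 10 libraries, by group. Circles are replicate 1, triangles replicate 2 and lines the mean of the 2. For Flt1 the AP_1h points (20.8 and 17.6 CPM) are the lowest of all 10, and for Thbd 1 AP_1h point stands at 223 CPM above the rest.

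Vegfa encodes the main growth factor for endothelium. Its 5 transcripts lie on rn4 chromosome 9 on the plus strand, 3 of them from 10520730 to 10536070 and 2 from 10528154 to 10536070, so that all share bases with each other. All 5 were listed at 0 in each of the 10 libraries. The authors' counting mode leaves out a read that it cannot assign to a single transcript. Overlap was judged here, and for the other transcripts below, by genomic span, without regard to exons or strand. Of the 906 transcripts in the table that overlap another of the same symbol, 416 (45.9%) were at 0 throughout, against 2940 of 16315 (18.02%) of those that do not. No level, limit or change of Vegfa can be read from these values.

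Fgf2 (NM_019305, rn4 chromosome 2, 123893314 to 123947136, plus strand) encodes basic fibroblast growth factor, which acts on endothelium, fibroblasts and muscle precursor cells. It rested on 140 reads in all, between 3 and 33 a library, so that each level is imprecise. Levels were 3.10 and 1.63 CPM in RA_0, 2.05 and 4.62 in AP_1h, 1.29 and 0.526 in PLA_1h, 2.54 and 1.94 in AP_34d, and 1.23 and 1.56 in PLA_34d. Each placebo library was below every library of the other 3 groups, a split whose share over all transcripts was not counted. At its edge PLA_34d replicate 2 (1.56 CPM) and RA_0 replicate 2 (1.63 CPM) held 11 reads each, so only the scaling sets them apart. AP_1h and PLA_1h differed by 1.15 ± 0.44 (SE) in log2(CPM + 1), 95% interval 0.18 to 2.12, at an unadjusted p of 0.0249 and an adjusted p of 1.00 in limma, and the libraries did not overlap, as was so on the higher side for 13.9% of all transcripts. Without AP_1h replicate 2 that difference was 0.71, and without PLA_1h replicate 2 it was 0.86. At 34 days the acupuncture libraries were again above the placebo libraries, by 0.43 ± 0.44, an interval of -0.54 to 1.40. PLA_1h stood 0.81 ± 0.44 below RA_0 (log2 change -0.81, limma unadjusted p 0.0913).

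Flt1 (NM_019306, rn4 chromosome 12, 7858092 to 8035966, plus strand) showed the closest replicates among the 6 genes, with a pooled SD within groups of 0.153 in log2(CPM + 1) against an SD of 0.468 between the 5 group means. It stood at 31.7 and 28.5 CPM in RA_0, 20.8 and 17.6 in AP_1h, 31.9 and 41.9 in PLA_1h, 35.9 and 36.6 in AP_34d, and 45.2 and 49.2 in PLA_34d. Both AP_1h libraries were the lowest and both PLA_34d libraries the highest of the 10, an order whose share over all transcripts was not counted. In order of their means the groups ran AP_1h, RA_0, AP_34d, PLA_1h and PLA_34d, and the libraries of AP_34d lay between those of PLA_1h. Among neighbours in that order, AP_1h and RA_0, and RA_0 and AP_34d, were compared and not called by limma, and both PLA_34d libraries lay above both PLA_1h libraries, a pair that was not tested. The mean of AP_1h was 19.2 ± 2.21 CPM (SD, n = 2), 0.52 times the 36.9 ± 7.09 of PLA_1h. That difference was -0.90 ± 0.28 on the log2 scale (95% interval -1.52 to -0.28, limma unadjusted p 0.00857, adjusted p 0.814). Against RA_0 it was -0.63 ± 0.28 (unadjusted p 0.0471, adjusted p 0.554). PLA_34d stood 0.63 ± 0.28 above RA_0 (unadjusted p 0.0456, adjusted p 0.914).

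A change anywhere among the 5 groups had an unadjusted p of 0.0115 for Flt1 in limma's F test, the smallest of the 6 genes, where 4.98% of all transcripts were under 0.05. Its adjusted p was 0.753, and the F test called 0.0% of transcripts. The difference between acupuncture and placebo was smaller in size at 34 days, -0.37 ± 0.28, than at 1 h. The test of that change over time gave 0.53 ± 0.39 at an unadjusted p of 0.205. In each of the other 5 genes the corresponding test gave an unadjusted p of 0.114 or more, and over all 6 genes the adjusted p was 1.00.

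Tek (NM_001105737, rn4 chromosome 5, 115047195 to 115196172, plus strand), whose product Tie2 is the angiopoietin receptor, varied least. Its levels were 29.1 and 32.7 CPM in RA_0, 35.1 and 36.2 in AP_1h, 42.8 and 33.3 in PLA_1h, 47.1 and 31.4 in AP_34d, and 35.3 and 32.8 in PLA_34d, with the highest library 1.62 times the lowest. Both RA_0 libraries lay below both libraries of AP_1h, PLA_1h and PLA_34d, as was so for 20.6%, 15.8% and 16.8% of all transcripts, while AP_34d overlapped RA_0. AP_1h differed from RA_0 by 0.20 ± 0.30, with an interval of -0.46 to 0.87, and from PLA_1h by -0.08 ± 0.30, with an interval of -0.74 to 0.58. With 2 libraries a group, differences of any size inside those intervals remain possible.

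Cdh5 (NM_001107407, rn4 chromosome 19, 779350 to 816108, minus strand) encodes VE-cadherin, the adhesion protein of endothelial junctions. It stood at 67.5 and 64.9 CPM in RA_0, 36.4 and 21.5 in AP_1h, 36.4 and 80.2 in PLA_1h, 72.9 and 58.4 in AP_34d, and 48.6 and 75.8 in PLA_34d. The AP_1h libraries and 1 PLA_1h library formed the low end, and both RA_0 libraries lay close together. The AP_1h mean of 29.0 ± 10.5 CPM was 0.438 times the 66.2 ± 1.85 of RA_0, a log2 difference of -1.21 ± 0.42 (95% interval -2.14 to -0.28, limma unadjusted p 0.0161, adjusted p 0.424). The libraries did not overlap, as was so on the lower side for 21.0% of all transcripts. Without AP_1h replicate 1 the difference was -1.58, and without AP_1h replicate 2 it was -0.84 (limma unadjusted p 0.126). Against PLA_1h, whose 2 libraries stood apart, it was -0.92 ± 0.42 (unadjusted p 0.0521) and the groups overlapped. At 34 days AP and PLA differed by 0.10 ± 0.42, an interval of -0.83 to 1.04.

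Pecam1 (NM_031591, rn4 chromosome 10, 96056220 to 96057224, minus strand) encodes CD31, a cell adhesion protein of endothelium that platelets and leukocytes also carry. The transcript in the table spans 1005 bases of the genome only, so that its count comes from that stretch. The levels were 40.8 and 41.6 CPM in RA_0, 55.2 and 30.8 in AP_1h, 35.5 and 46.0 in PLA_1h, 59.0 and 33.8 in AP_34d, and 42.2 and 35.3 in PLA_34d. The 2 RA_0 libraries were nearly equal, and in each of the other groups 1 library lay above them and 1 below. AP_1h differed from RA_0 by 0.0031 ± 0.37, with an interval of -0.82 to 0.83. The spread between replicates, an SD of 0.387 in log2(CPM + 1), was larger than that between group means, 0.0748. Cdh5 and Pecam1, both markers of the same cells, thus stood at -1.21 and 0.0031 in the same pair of groups, and a difference between the 2 genes was not tested. In bulk tissue, fewer endothelial cells and less RNA of a gene per cell cannot be told apart.

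Thbd (NM_031771, rn4 chromosome 3, 137158955 to 137162607, minus strand) encodes thrombomodulin, which turns thrombin on the endothelial surface into an activator of the anticoagulant protein C, and which monocytes also carry. It stood at 28.2 and 48.6 CPM in RA_0, 223 and 51.9 in AP_1h, 54.6 and 30.5 in PLA_1h, 40.8 and 52.4 in AP_34d, and 38.0 and 24.6 in PLA_34d. AP_1h replicate 1, with 2059 reads, was far above every other library, while AP_1h replicate 2 lay inside the range of the remaining libraries. The log2 difference between AP_1h and RA_0 was 1.52 ± 0.60 (95% interval 0.18 to 2.86, limma unadjusted p 0.0302, adjusted p 0.512). Without AP_1h replicate 1 it was 0.48 (unadjusted p 0.367), and without AP_1h replicate 2 it was 2.56 (unadjusted p 0.000658, adjusted p 0.182). AP_1h and PLA_1h differed by 1.38 ± 0.60 (unadjusted p 0.0450) with overlapping libraries. DESeq2's test of any difference among the 5 groups called Thbd (adjusted p 0.0430), 1 of the 6 genes beside 2.48% of all transcripts, and without AP_1h replicate 1 its adjusted p was 1.00.

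**Figure D2:**
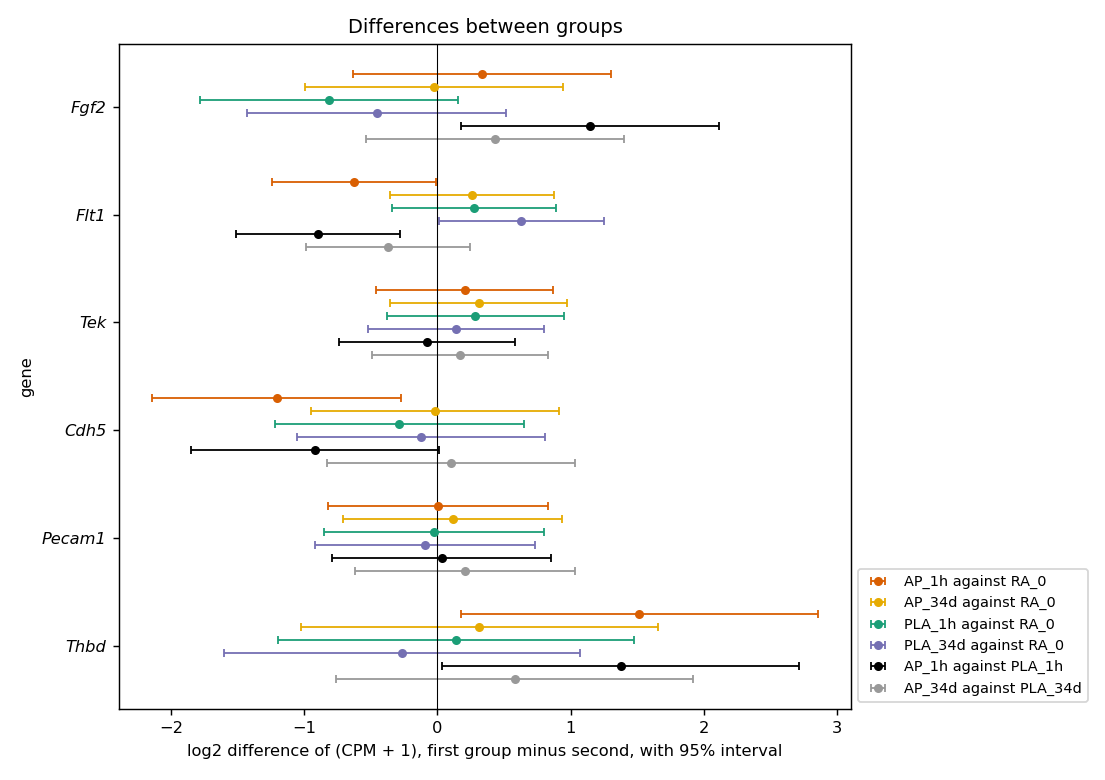
Log2 difference of (CPM + 1) for 6 genes in 6 comparisons (horizontal axis, first group minus second), as points with 95% intervals from limma. The intervals of Pecam1 and Tek include 0 in all 6 comparisons, and those of Flt1 and Thbd leave it in the comparisons of AP_1h with RA_0 and with PLA_1h.

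The study selected genes at an unadjusted p under 0.05 that also differed 2-fold or more and averaged 1 CPM or more. On the fit used here, that rule took Cdh5 and Thbd in AP_1h against RA_0, beside 6.12% of all transcripts, and Thbd and Fgf2 in AP_1h against PLA_1h, beside 2.62%. In the other 4 comparisons it took none of the 6 genes, beside 2.82%, 1.67%, 2.42% and 3.57% of all transcripts for AP_34d, PLA_1h and PLA_34d against RA_0 and for AP_34d against PLA_34d.

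Cdh5 was compared with the other 5 genes across the 10 libraries, on log2(CPM + 1). Flt1 ran with it, at a Pearson r of 0.770 (permutation p 0.00979, two-sided, adjusted p 0.0489 over the 5 relations) and a Spearman rho of 0.60 (permutation p 0.0730, adjusted p 0.182). Without AP_1h replicate 2 and PLA_1h replicate 1, the 2 libraries farthest from the median of Cdh5, r was 0.610. After the mean of each group was removed it was 0.913, a description only, since each group then holds 1 free difference. Thbd ran against Cdh5 at r = -0.544 (permutation p 0.101) and rho = -0.758 (permutation p 0.0147, adjusted p 0.0733), with r = -0.852 without those 2 libraries and 0.018 after the group means were removed. Fgf2 gave r = -0.500 and rho = -0.297, Pecam1 r = 0.360 and rho = 0.358, and Tek r = -0.231 and rho = -0.358, each with a permutation p of at least 0.148, and after the group means were removed r was -0.544, 0.593 and -0.303. The adjusted p of Flt1 lies at the threshold. Without AP_1h replicate 2 its r was 0.565 (exact permutation, adjusted p 0.287) and Thbd passed instead (r = -0.746, adjusted p 0.0381), and without 7 of the other libraries, each left out in turn, no gene passed. All points share the scaling of their library. The permutations moved the 10 libraries without regard to group, and how many of all transcripts reach such an r with Cdh5 was not counted.

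**Figure D3:**
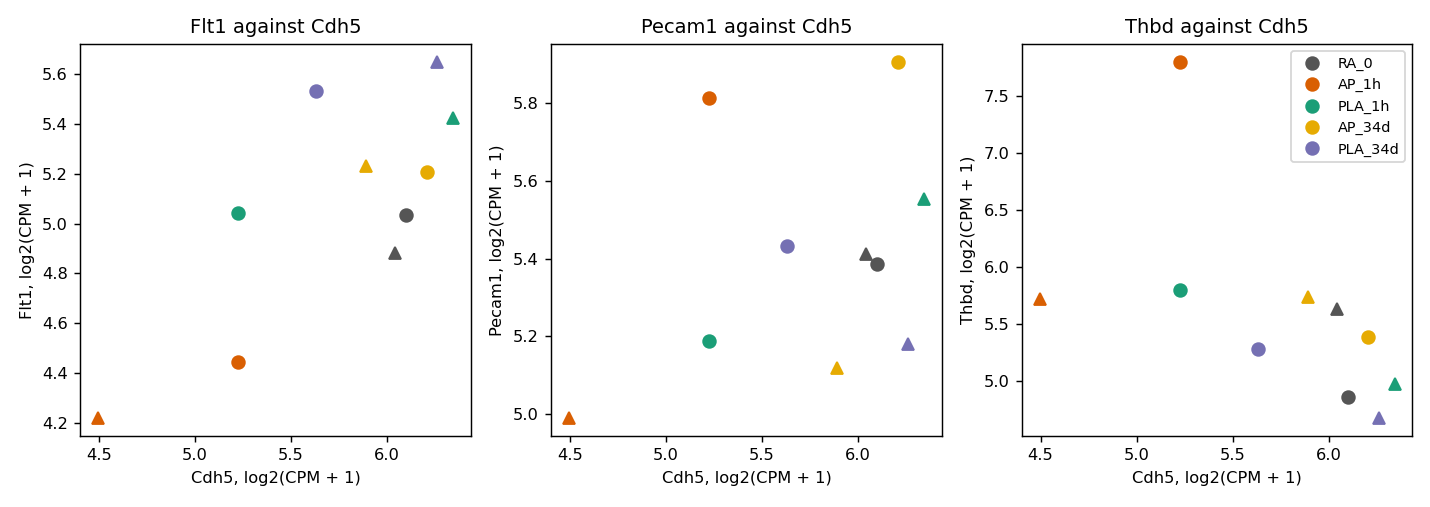
Levels of Flt1, Pecam1 and Thbd (vertical axes) against Cdh5 (horizontal axes), as log2(CPM + 1) in 10 libraries; circles are replicate 1 and triangles replicate 2, coloured by group. Flt1 rises with Cdh5 (r = 0.770), Pecam1 shows no clear order (r = 0.360), and Thbd runs against it (r = -0.544), with AP_1h replicate 1 at the top.

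The 3 transcripts nearest to Cdh5 among 8140 with a mean of at least 5 CPM were Mef2d (r = 0.984), which encodes a transcription factor of muscle, LOC301128 (r = 0.969) and Slc25a29 (r = 0.956), which encodes a mitochondrial carrier of basic amino acids. These were picked as the closest of many and carry no test. The summed level of 13 transcripts of skeletal muscle fibres was 148451 and 253308 CPM in AP_1h, 173122 and 355542 in PLA_1h, 372937 and 216543 in RA_0, 308529 and 209781 in AP_34d, and 146222 and 286104 in PLA_34d. The library of each group with the higher fibre sum was also the one with the higher Cdh5 level in RA_0, PLA_1h, AP_34d and PLA_34d, and in AP_1h it was the one with the lower level. The part of the amount of muscle in the Cdh5 differences was not tested.

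Other genes of the same pathways were read from lists, which were also drawn up with earlier results of these data known. No transcript of any list was called by limma in any comparison. Counts of list transcripts below are at an unadjusted p under 0.05 unless a direction alone is named, and for AP_1h against RA_0 they stand beside 5.27% of all transcripts lower and 3.62% higher at that level. By direction alone 49.9% of all transcripts were lower there. Among 7 other VEGF ligands and receptors, 2 were lower and none higher in AP_1h than in RA_0 at an unadjusted p under 0.05 (5 lower by direction alone), and the median log2 difference was -0.45 against 0.0020 over all transcripts. Nrp1, which encodes the VEGF co-receptor neuropilin 1, stood at 29.1 and 32.2 CPM in RA_0 and at 10.9 and 21.4 in AP_1h (log2 difference -0.95 ± 0.36, limma adjusted p 0.480). Flt4, which encodes VEGFR3 of lymphatic and sprouting endothelium, stood at 6.68 and 3.56 CPM in RA_0 and at 1.51 and 1.54 in AP_1h (-1.23 ± 0.40, adjusted p 0.384). Nrp2 had its smallest p at 34 days, with 3.71 and 2.99 CPM in AP_34d and 12.1 and 6.25 in PLA_34d (-1.17 ± 0.40, adjusted p 0.846). The low AP_1h libraries of Flt1 were thus also the lowest for Flt4.

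Of 4 other genes of the angiopoietin pathway, 1, Angpt1, was lower in AP_1h than in RA_0 and than in PLA_1h at an unadjusted p under 0.05. Of all transcripts 5.27% and 2.74% were lower at that level. This gene, the activating ligand of Tie2, ran from 2.05 and 6.44 CPM in AP_1h to 21.6 and 7.02 in PLA_1h (-1.50 ± 0.57, limma adjusted p 1.00). Tie1, the partner of Tie2, stood between 31.4 and 56.1 CPM in all libraries, and none of the 6 comparisons gave it an unadjusted p under 0.05. Angpt4 lay at 1.68 CPM or less throughout.

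Of 5 tested FGF genes, 2 were higher and 1 lower in AP_1h than in RA_0 at an unadjusted p under 0.05. By direction alone 2 were higher and 3 lower, with a median of -0.16. Fgf1, the acidic fibroblast growth factor, stood at 5.96 and 7.28 CPM in RA_0 and at 2.92 and 2.66 in AP_1h (-1.004 ± 0.36, limma adjusted p 0.460). Sdc4, a heparan sulphate proteoglycan that binds FGF2 and helps it signal, stood at 27.9 and 24.5 CPM in RA_0 and at 105 and 46.9 in AP_1h (1.39 ± 0.52, adjusted p 0.472). Fgfr3, an FGF receptor, stood at 1.91 and 1.63 CPM against 6.92 and 3.08 (1.04 ± 0.46, adjusted p 0.556). As for Thbd, AP_1h replicate 1 was the highest of the 10 libraries in Sdc4.

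Of 24 tested transcripts of other endothelial markers, none was under an unadjusted p of 0.05 in any of the 6 comparisons, which with 2 libraries a group does not show that they stayed the same. In AP_1h against RA_0 15 were lower and 9 higher by direction alone, with a median of -0.13. In PLA_1h against RA_0 19 were lower and 5 higher, with a median of -0.19, beside 50.6% of all transcripts lower and 49.3% higher. For 9 of the 24 both PLA_1h libraries lay below both RA_0 libraries, beside 13.6% of all transcripts. Their summed level was 1341 and 1179 CPM in RA_0 and 1263 and 906 in AP_1h. The 3 with the smallest p were Cldn5, a tight junction protein (AP_34d against PLA_34d, 0.94 ± 0.43), Emcn, a sialoglycoprotein of venous and capillary endothelium (AP_34d against RA_0, -0.85 ± 0.39), and Eltd1, an adhesion receptor of endothelium (AP_34d against PLA_34d, 0.60 ± 0.30).

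Of 10 genes of Notch signalling and tip cells, the cells that lead a sprout, 9 had AP_1h below RA_0, with 2 at an unadjusted p under 0.05 (5.27% of all transcripts) and a median of -0.65. Against the same RA_0 libraries 9 lay below in PLA_1h, 8 in AP_34d and 9 in PLA_34d, with medians of -0.55, -0.42 and -0.22. Of all transcripts 49.9% lay below RA_0 in AP_1h, 50.6% in PLA_1h, 50.7% in AP_34d and 51.0% in PLA_34d. Esm1, a secreted proteoglycan made by tip cells under VEGF, stood at 28.9 and 32.7 CPM in RA_0, 5.73 and 3.36 in AP_1h, 14.1 and 9.48 in PLA_1h, 9.18 and 3.73 in AP_34d, and 30.8 and 7.68 in PLA_34d. Its AP_1h difference from RA_0 was -2.55 ± 0.59 (limma unadjusted p 0.00146, adjusted p 0.233). Heyl, a Notch target, stood at 31.0 and 28.4 CPM in RA_0 and at 21.1 and 9.94 in AP_1h (-0.98 ± 0.39), and Apln, which encodes apelin, at 5.96 and 3.86 against 0.865 and 2.66 (-1.16 ± 0.54).

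Of 15 hypoxia response genes, 2 were lower and none higher in AP_1h than in RA_0 at an unadjusted p under 0.05. By direction alone 8 were lower and 7 higher, with a median of -0.06. Epas1, which encodes the hypoxia factor HIF-2α of endothelium, stood at 130 and 136 CPM in RA_0 and at 70.7 and 46.5 in AP_1h (-1.20 ± 0.37, limma adjusted p 0.347). Pdk1, a kinase that turns pyruvate away from the mitochondria, stood at 42.2 and 22.3 CPM against 11.5 and 17.2 (-1.07 ± 0.40, adjusted p 0.465). Egln3, an oxygen-sensing hydroxylase, reached 678 CPM in AP_1h replicate 1 and lay between 96.7 and 364 elsewhere. The 8 inhibitors of angiogenesis had none under an unadjusted p of 0.05 in any comparison, and Adamts1, a secreted protease that binds VEGF, had the smallest p of the list in AP_34d against PLA_34d (55.5 and 150.3 CPM against 43.5 and 38.2, 1.14 ± 0.55).

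Among 14 transcripts of 13 genes of haemostasis and activated endothelium, 11 had AP_1h above RA_0, with 1 at an unadjusted p under 0.05 and a median of 0.43. That transcript was 1 of 2 of Tfpi, the inhibitor of the tissue factor pathway, at 3.58 and 4.01 CPM in RA_0 and 7.68 and 9.38 in AP_1h (0.99 ± 0.36, limma adjusted p 0.463), and it overlaps another transcript, which makes its count uncertain. The other Tfpi transcript differed by -0.23 (unadjusted p 0.540). Klf4, a transcription factor that raises Thbd in endothelium, stood at 91.1 CPM in AP_1h replicate 1 and between 13.2 and 57.0 in the other libraries. F8 had its smallest p in AP_34d against PLA_34d (-0.90 ± 0.43). The highest levels of Thbd, Klf4, Egln3 and Sdc4 were thus in the same library, as were those of Fgfr3, Adamts1 and Cldn5. How many of all transcripts peak in that library was not counted.

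**Figure D4:**
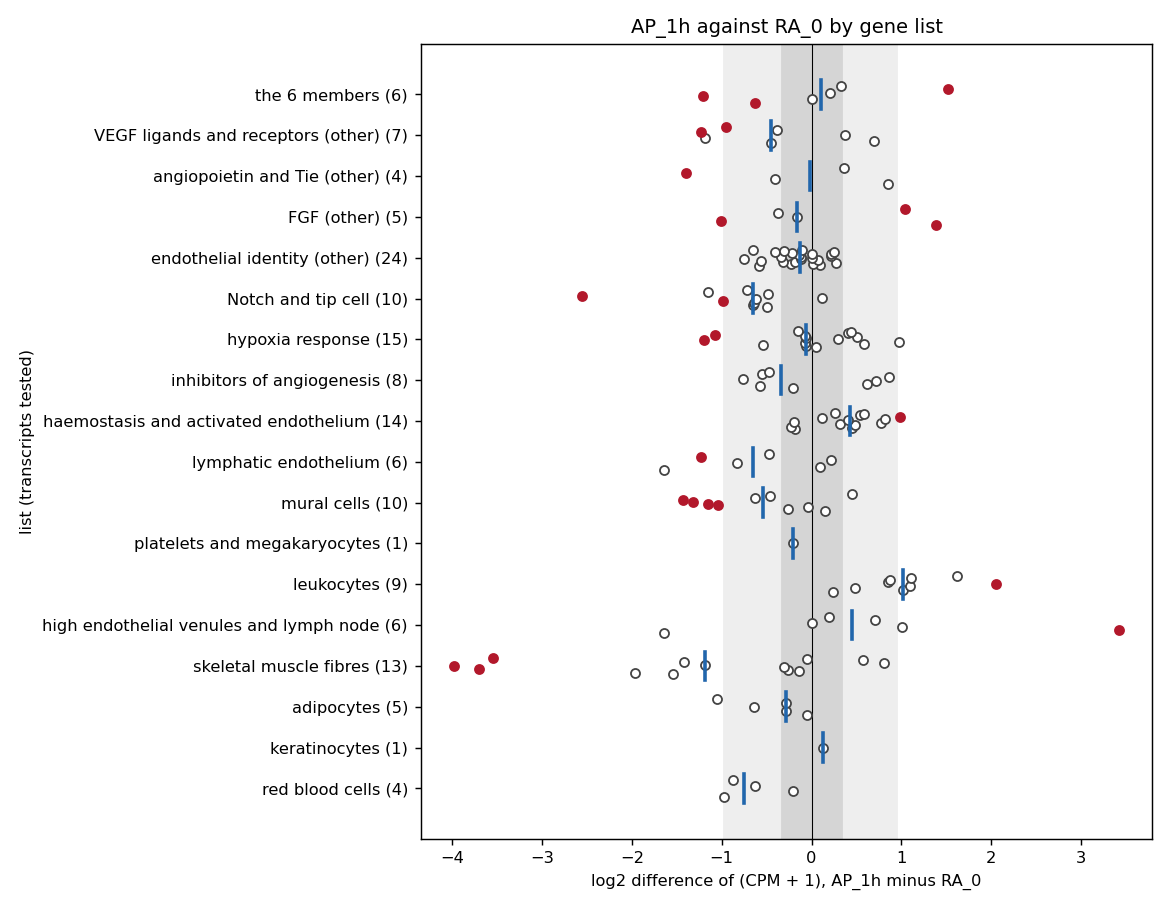
Log2 difference of (CPM + 1) between AP_1h and RA_0 (horizontal axis) for each tested transcript of 17 lists and the 6 genes. Filled red points have an unadjusted p under 0.05, blue bars are list medians, and the grey bands hold the middle 50% and 90% of all 10259 transcripts. Left of the inner band (-0.33 to 0.33) lie the medians of the muscle fibre (-1.19), red blood cell (-0.75), lymphatic (-0.65), Notch (-0.65), mural (-0.55), VEGF (-0.45) and inhibitor (-0.34) lists, and right of it those of the leukocyte (1.02), venule (0.45) and haemostasis (0.43) lists.

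Cells that touch or surround vessels were read in the same way. Mural cells, the pericytes and smooth muscle around vessels, had 10 transcripts of 9 genes. Of these, 4 were lower and none higher in AP_1h than in RA_0 at an unadjusted p under 0.05 (5.27% and 3.62% of all transcripts). By direction alone 8 lay below RA_0 in AP_1h, 8 in PLA_1h, 9 in AP_34d and 7 in PLA_34d. The medians were -0.55, -0.34, -0.33 and -0.29. Against PLA_1h, AP_1h had a median of -0.29, with 1 lower at an unadjusted p under 0.05, beside 2.74% of all transcripts. Rgs5, a pericyte marker, stood at 41.7 and 60.003 CPM in RA_0 and at 23.5 and 20.6 in AP_1h (-1.15 ± 0.32, limma adjusted p 0.286). Cspg4, the pericyte proteoglycan NG2, stood at 23.1 and 26.4 CPM against 9.19 and 7.98 (-1.43 ± 0.37, adjusted p 0.252), and Notch3 at 48.9 and 76.9 against 33.5 and 17.1 (-1.32 ± 0.43, adjusted p 0.380). Of 6 lymphatic genes, 4 had AP_1h below RA_0, with Flt4 at an unadjusted p under 0.05 and a median of -0.65, and Pdpn, which encodes podoplanin, stood at 20.3 and 37.0 CPM in AP_34d and at 10.5 and 6.25 in PLA_34d (1.64 ± 0.53, adjusted p 0.846). Ccl21, a chemokine of lymphatic vessels and lymph nodes, stood at 314 CPM in PLA_34d replicate 1 and between 6.30 and 66.6 in the other libraries.

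Markers of other tissues moved with some libraries. Of 13 muscle fibre genes, 11 had AP_1h below RA_0, with a median of -1.19. Against the same RA_0 libraries 10 lay below in PLA_1h, 12 in AP_34d and 13 in PLA_34d, with medians of -0.23, -0.50 and -0.65. Of all transcripts 49.9% were lower in AP_1h, 50.6% in PLA_1h, 50.7% in AP_34d and 51.0% in PLA_34d. In AP_1h 3 fibre genes were at an unadjusted p under 0.05, and in the other 3 groups 0. They were the slow fibre genes Tnni1 (-3.70 ± 1.05), Tnnt1 (-3.54 ± 1.12) and Myh7 (-3.98 ± 1.29), the last of which overlaps another transcript. PLA_34d replicate 1, which held the second highest Flt1 level, had a sum of 827 CPM over the 11 transcripts of high endothelial venules and lymph node, where the others had 26.4 to 78.3, and 743 CPM over the leukocyte list, where the others had 45.8 to 193. Glycam1, which marks high endothelial venules, stood at 172 and 4.12 CPM in PLA_34d and was listed at 0 in the other 8 libraries. Without PLA_34d replicate 1 the Flt1 difference between PLA_34d and RA_0 was 0.69. AP_1h replicate 1, the library with the high Thbd level, had the leukocyte sum of 193 CPM, and AP_1h replicate 2, with 51.9 CPM of Thbd, had 64.0. All 9 tested leukocyte transcripts lay higher in AP_1h than in RA_0 (median 1.02, with 1 at an unadjusted p under 0.05), beside 50.1% of all transcripts. The same 9 lay higher than in PLA_1h (median 0.99, with none), beside 50.9%. Above RA_0 there were also 5 in PLA_1h, 7 in AP_34d and 9 in PLA_34d. PLA_34d replicate 1 had 38.0 CPM of Thbd beside its sum of 743. The list mixes several kinds of leukocyte, and a relation of Thbd with its sum was not tested.

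In PLA_34d against RA_0, 3 of 9 leukocyte genes, 3 of 6 genes of high endothelial venules and lymph node and 2 of 5 adipocyte genes were higher at an unadjusted p under 0.05, beside 2.38% of all transcripts. Coro1a of leukocytes stood at 178 and 5.69 CPM in PLA_34d and at 1.91 and 4.60 in RA_0. Adipoq of adipocytes stood at 73.0 and 20.04 CPM in PLA_34d and at 1.67 and 21.1 in RA_0, so its libraries overlapped. In PLA_34d replicate 2 the leukocyte list summed to 45.8 CPM, beside 47.2 and 53.2 in RA_0. The venule list summed there to 47.1 CPM, beside 44.4 and 47.8 in RA_0. For these 2 lists only PLA_34d replicate 1 thus had a sum above both RA_0 libraries. Cxcl13, a B cell chemokine, stood at 33.8 and 15.5 CPM in AP_1h and at 0.477 and 2.38 in RA_0, a log2 difference of 3.43 ± 1.05 (limma adjusted p 0.341). The platelet list, whose Pf4 was its only tested transcript, summed to 2.54 to 6.64 CPM over the 10 libraries and the keratinocyte list to 1.76 to 6.11, so that markers of platelets and skin epithelium were near 0. The red blood cell list summed to 226 to 628 CPM, and 4 of 4 tested transcripts had AP_1h below RA_0 with none under an unadjusted p of 0.05. Below RA_0 there were also 3 in PLA_1h, 3 in AP_34d and 4 in PLA_34d. The part of these other cells in the levels of the vessel genes was not tested.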

How the data were processed

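Polyadenylated RNA libraries of muscle beneath the skin were sequenced on an Illumina HiSeq instrument. As the labels and the paper's methods have it, the authors trimmed reads with cutadapt 1.2.1, aligned them to rn4 with Bowtie2 2.1.0, assigned them to UCSC transcripts with HTSeq 0.5.4p3 in intersection-nonempty mode and scaled them with edgeR 3.4.2. Strand use is not given in the sources used here. The deposited values are a TMM-scaled CPM signal for each transcript, and whole reads could be recovered from it (tolerance 0.01 reads, 100% of values). These are levels per library, not per length, so genes are not compared with each other. Intervals cover the spread between libraries.

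Transcripts reaching 1 CPM in both libraries of a group (10259, 59.6%) were tested as log2(CPM + 1) in limma 3.58.1, with 1 mean per group over the 10 libraries, a mean trend, and Benjamini-Hochberg adjusted p under 0.05 (R 4.3.3). A log2 difference on this scale understates the change of low transcripts. edgeR 4.0.16, limma-voom and DESeq2 1.42.0 on the recovered reads were alternatives. The analysis was tested on simulated data. Relations with Cdh5 used 100000 permutations, and all orders where 9 libraries remained. Members and lists were chosen with earlier results of these data known. All members with a row are named. From each list up to 3 transcripts are named, those with the smallest unadjusted p, none of which passed, and further list values are given where they set a limit. The lists are other VEGF, angiopoietin and FGF genes, other endothelial markers, Notch and tip cell, hypoxia response, inhibitors of angiogenesis, haemostasis, lymphatic endothelium, mural cells, platelets, leukocytes, high endothelial venules, muscle fibres, adipocytes, keratinocytes and red blood cells. Promoter sequences are RefSeq's, build GRCr8, and no coordinate was moved between builds.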

Additional observations from a re-analysis of the deposited data

How the results depend on the processing

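In the 6 comparisons of 2 groups no member was called under any alternative fit by limma, limma-voom, edgeR or DESeq2, the replicate block and each library left out included. The study's rule took 2 members in AP_1h against RA_0 and 2 in AP_1h against PLA_1h. For any difference among the 5 groups DESeq2 called 1 member, Thbd, and 0 without AP_1h replicate 1, an alternative added after the data had been seen, as was the test of the change over time. For the relations with Cdh5, 1 member passed, and 0 passed with a pseudocount of 4, with quantile normalization and with scaling without the 20 most abundant transcripts. Between 0 and 1 passed with a library left out, and r with Flt1 ran from 0.565 to 0.851.

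The labels do not say that a replicate number marks a shared litter, day or batch, and the libraries were treated as sharing a number only. Same-numbered deviations correlated between -0.464 and 0.446 over 10 pairs of groups, with 4 over 0.1. With the replicate block 0 members were called in every comparison, 1 member passed with Cdh5, and limma called 0 transcripts in AP_1h against RA_0 in place of 3. Of 36 member changes, the 7 at an unadjusted p under 0.05 kept their sign under all alternatives, and so did 12 of the other 29. The unadjusted p stayed under 0.05 in 8 of 24 alternatives for Flt1 in AP_1h and in PLA_34d against RA_0, in 13 of 24 for Thbd in AP_1h against PLA_1h, and in 21 or 22 of 23 or 24 for the other 4. The changes whose sign differed under an alternative were at most 0.33 in size. Scaling without the 20 most abundant transcripts moved the median log2 difference of all transcripts by 0.11 in AP_1h against RA_0, 0.16 in PLA_34d against RA_0, -0.15 in AP_34d against PLA_34d and -0.22 in the change over time. Depth limits Fgf2 most, with 3 to 33 reads a library, and Vegfa has no level at all.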
